A study of Homo sapiens with 30 samples.

Results

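The collagen genes described here are the 44 genes, of 28307 in each count table, whose symbol is COL, digits, A and digits. The annotation gave all 44 as protein-coding. By structure they comprised 11 fibrillar genes, 6 basement membrane (type IV) genes, 3 short-chain network genes, 5 beaded filament (type VI) genes, 1 anchoring fibril gene, 10 fibril-associated (FACIT) genes, 4 transmembrane genes, 2 multiplexin genes and 2 others. Levels are given in CPM, the counts of a gene per 1000000 counts of its library. A group mean of at least 1 CPM was reached by 36 of the 44 in any group and by 15 in every group, and 8 stayed below 1 CPM in every group.

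RNA was sequenced from H9, an established human embryonic stem (hES) cell line, in 30 libraries that formed 10 groups of 3. The study asked what the X-linked noncoding RNAs XIST and XACT, and SPEN, a protein that binds XIST, do on the X chromosome of naive hES cells, which resemble the preimplantation epiblast. Naive cells were obtained from primed cells, which resemble the postimplantation epiblast, with PXGL medium or with the NaiveCult protocol, and were grown on mouse embryonic fibroblasts as feeders. Primed cells grew on Matrigel.

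Of the PXGL groups, PXGL WT was wild type, XIST KO was 3 replicates of 1 clone with a CRISPR-Cas9 deletion at XIST, and CRISPRi UT and CRISPRi Dox were 3 independent clones carrying a doxycycline-inducible dCas9-KRAB repressor and a guide to the XIST promoter, untreated or Dox-treated. The other PXGL groups were siScr, transfected with a scrambled siRNA, and siSPEN1 and siSPEN2, each transfected with a different siRNA mix against SPEN. NaiveCult WT was wild type, XACT KO was 3 independent NaiveCult clones with a deletion over the XACT start sites, and Primed WT was wild type. In the study's description, the RNA libraries of the other groups were biological replicates, while those of XIST KO were technical. The p-values of XIST KO, and of its difference from Dox, therefore measure only technical spread within XIST KO, and a change of that clone cannot be told apart from an effect of the deletion. The labels name no batch of the libraries, so between any of the wild types a batch and the culture cannot be told apart. For both naive cultures against primed cells, the feeders and the state cannot be told apart.

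Collagens are secreted proteins whose chains wind into a triple helix in the endoplasmic reticulum, after hydroxylation of prolines and lysines. Fibrillar collagens are trimmed outside the cell and assemble into the cross-linked fibrils of connective tissue, type IV collagens form the sheet of basement membranes together with laminins, nidogens and perlecan, and FACIT collagens sit on the surface of fibrils. In the early embryo the epiblast lies on a basement membrane, and interstitial fibrils are made mainly by mesenchymal cells such as fibroblasts.

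Library totals ranged from 31190052 to 65637976 counts. The targeted genes followed the labels. XIST was at 898 to 901 CPM in PXGL WT and 0.177 to 0.448 CPM in XIST KO, and at 642 to 698 CPM in CRISPRi UT against 6.52 to 169.7 CPM in CRISPRi Dox, where replicate 1 held the lowest value. SPEN was at 330.0 ± 46.3 CPM (mean ± SD, n = 3) in siScr, 152 to 177 CPM in siSPEN1 and 152 to 167 CPM in siSPEN2, and XACT at 1.14 to 2.17 CPM in NaiveCult WT against 0 to 0.124 CPM in XACT KO. In both naive wild types, 8 of 8 naive markers were called higher and 7 of 7 primed markers lower than in Primed WT. "Called" means an edgeR Benjamini-Hochberg adjusted p below 0.05 over all genes tested together with a change of more than 1 on the log2 scale in either direction. Members that passed the adjusted p but not the fold are said to have passed the adjusted p alone. Counts of genes past the adjusted p, or under an unadjusted p of 0.05, stand without the share over all genes. Such counts say nothing about the genes as a set.

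The 6 type IV genes lie in 3 head-to-head pairs, and the results turn on how the members of each pair behaved. COL4A1 (chromosome 13, 110148963 to 110307157, minus strand) and COL4A2 (110305812 to 110513209, plus strand) encode the chains found in nearly all basement membranes. COL4A3 (chromosome 2, 227164624 to 227314792, plus strand) and COL4A4 (227002714 to 227164453, minus strand) encode chains known from the kidney filter and other specialised membranes. COL4A5 (chromosome X, 108439838 to 108697545, plus strand) and COL4A6 (108155607 to 108439497, minus strand) are the X-linked pair. Positions are those of GENCODE 44 on hg38.

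RefSeq promoter windows on GRCh38.p14, here the 250 bases before each start, were found for 32 of the 44 genes, with 44 windows in all. Windows of type IV genes are shown because paired genes share sequence between their starts, and that of COL11A1 because this gene, with 4280 counts in Primed WT, had 2 in NaiveCult WT and 1 in PXGL WT. The RefSeq starts of COL4A1 and COL4A2 were 127 bases apart, those of COL4A3 and COL4A4 419, and those of COL4A5 and the nearest start of COL4A6 380. The window of COL4A1 (chr13:110307158-110307407, minus strand) contains the start of COL4A2. The windows of COL4A5 (chrX:108439588-108439837, plus strand) and COL4A6 (chrX:108439459-108439708, minus strand) share 121 bases, read on opposite strands. The window of COL11A1 is chr1:103108523-103108772, minus strand. Capitals mark matches on either strand to 3 motifs. The GC box was searched as GGGCGG. The TATA box was searched as TATAAA, and the third motif was the CCAAT box, searched by its name. None of these overlapped another in the windows shown.
COL4A1: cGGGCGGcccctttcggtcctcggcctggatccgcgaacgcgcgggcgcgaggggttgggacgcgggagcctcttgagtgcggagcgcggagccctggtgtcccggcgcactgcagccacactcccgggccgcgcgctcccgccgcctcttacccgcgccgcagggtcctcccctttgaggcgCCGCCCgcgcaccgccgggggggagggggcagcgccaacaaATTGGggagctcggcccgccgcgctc
COL4A5: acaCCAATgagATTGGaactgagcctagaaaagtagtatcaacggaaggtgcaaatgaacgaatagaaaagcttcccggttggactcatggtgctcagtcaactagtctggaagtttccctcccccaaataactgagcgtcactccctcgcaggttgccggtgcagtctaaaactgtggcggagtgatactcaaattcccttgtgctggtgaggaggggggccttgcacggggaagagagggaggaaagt
COL4A6: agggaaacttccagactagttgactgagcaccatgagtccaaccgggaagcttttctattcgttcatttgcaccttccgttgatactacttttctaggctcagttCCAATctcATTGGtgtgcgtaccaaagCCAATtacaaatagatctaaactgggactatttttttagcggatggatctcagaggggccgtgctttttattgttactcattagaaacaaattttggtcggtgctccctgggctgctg
COL11A1: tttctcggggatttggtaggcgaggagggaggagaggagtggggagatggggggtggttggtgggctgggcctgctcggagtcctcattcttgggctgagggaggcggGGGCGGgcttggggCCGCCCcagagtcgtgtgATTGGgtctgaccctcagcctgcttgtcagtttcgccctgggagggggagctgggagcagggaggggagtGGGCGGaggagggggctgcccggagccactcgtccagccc
The COL4A1 window held 38 CpG dinucleotides, the COL4A2 window 40, the COL4A3 window 17, the COL4A4 window 20, the COL4A5 window 8 and the COL4A6 windows 3 and 7, against a median of 11 over 35116 windows in the genome. The COL11A1 window held 11. Collagen windows ranged from 1 to 40 CpG with a median of 12.5. A GC box was in 24 of the 44 collagen windows (54.5%, against 42.6% of all windows), a CCAAT box in 12 (27.3% against 32.0%) and a TATA box in 8 (18.2% against 10.7%). A match describes letters only.

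Summed over the 44 genes, Primed WT held the highest collagen level, 1156 ± 28.7 CPM (mean ± SD, n = 3 here and for all group means). PXGL WT held 642 ± 8.35 CPM, XIST KO 645 ± 6.72, CRISPRi UT 674 ± 25.5, CRISPRi Dox 600.0 ± 11.5, siScr 510.5 ± 5.75, siSPEN1 513 ± 20.7 and siSPEN2 593 ± 18.0. NaiveCult WT and XACT KO were lowest, at 396 ± 24.0 and 394 ± 29.6 CPM, and did not differ beyond their spread. Every naive library was below every primed one. In bulk RNA, fewer cells of a type and less RNA per cell cannot be told apart.

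**Figure D1:**
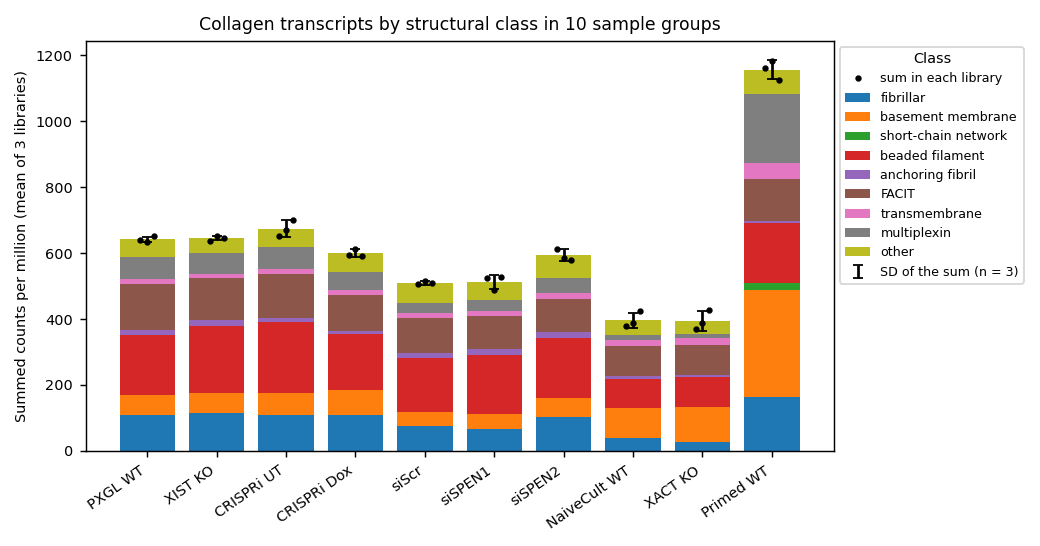
Summed CPM (y axis) of the 44 collagen genes in the 10 groups (x axis), stacked by structural class (bars, mean of 3 libraries; black points, the sum in each library; error bars, SD of the sum). Primed WT stands at 1156 CPM against 394 to 674 CPM in the naive groups, and its basement membrane and multiplexin shares are the largest.

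The make-up also differed between the wild types. Basement membrane collagens summed to 327 ± 2.34 CPM in Primed WT, 90.6 ± 12 in NaiveCult WT and 61.3 ± 1.90 in PXGL WT. Multiplexin collagens, nearly all of it COL18A1, summed to 207 ± 19.5, 16.3 ± 1.04 and 67.3 ± 1.93 CPM in the same order, transmembrane collagens to 49.2 ± 1.24, 18.2 ± 3.25 and 13.7 ± 0.448, and short-chain network collagens to 19.5 ± 0.488, 0.373 ± 0.180 and 0.438 ± 0.174. These 4 classes were thus far higher in primed cells. Fibrillar collagens were at 162 ± 2.23 CPM in Primed WT, 39.2 ± 4.73 in NaiveCult WT and 108 ± 0.854 in PXGL WT. Beaded filament collagens were as high in PXGL WT (182 ± 2.02 CPM) as in Primed WT (184 ± 10.8) and lower in NaiveCult WT (88.7 ± 6.34). FACIT collagens were at 129 ± 0.318 CPM in Primed WT, 92.0 ± 0.914 in NaiveCult WT and 141 ± 3.47 in PXGL WT. The anchoring fibril gene COL7A1 had the reverse order of the basement membrane collagens, 3.51 ± 0.385, 7.77 ± 0.0840 and 15.1 ± 0.355 CPM.

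Levels of different genes were compared per kilobase of exon. The exon length pools all annotated transcripts of a gene, so the order of genes depends on the annotation. PXGL WT was led by COL9A3, a chain of the FACIT collagen IX, at 27.2 ± 0.543 CPM per kb, followed by COL6A1 at 25.0 ± 0.259 and COL26A1, a little-studied secreted collagen, at 17.1 ± 1.06. NaiveCult WT was also led by COL9A3, at 17.3 ± 0.198 CPM per kb, then COL26A1 at 13.5 ± 0.679 and COL6A1 at 10.8 ± 0.787. Primed WT was led by COL18A1 at 24.4 ± 2.30 and COL26A1 at 24.0 ± 0.694 CPM per kb, which did not differ beyond their spread, followed by COL6A2 at 17.2 ± 1.35. A level of at least 1 CPM was reached by 33 members in Primed WT and by 19 to 22 in the 9 naive groups. For 32 of the 44, Primed WT had the highest mean of all groups.

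The first comparison set naive against primed wild-type cells. Most collagen genes were lower in naive cells: of 39 members tested, 26 were called lower and 5 higher in NaiveCult WT, and 23 lower and 7 higher in PXGL WT. Over all genes tested, 28.4% were called lower and 21.1% higher in NaiveCult WT, and 29% lower and 25.7% higher in PXGL WT. The median log2 fold change of the members tested was -1.92 in NaiveCult WT and -2.26 in PXGL WT, against -0.013 and -0.028 over all genes. The filter on low counts kept genes that were counted in a single group. Members such as COL11A1 and COL4A3, with 3 or fewer counts in each naive group, were kept through Primed WT. These could only come out lower, and COL3A1, kept through NaiveCult WT, only higher there. The counts and medians include such members, and the same filter held over all genes. Both comparisons share Primed WT, and 22 members were called lower and 4 higher in both. Scaling by library totals in place of TMM moved the all-gene medians to -0.17 and -0.24 and turned the direction of no member named in these comparisons. COL11A2, COL15A1, COL19A1, COL6A5 and COL8A1 had too few counts to be tested.

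All 6 type IV genes fell in both. COL4A1 was at 124, 122 and 125 CPM in the Primed WT libraries, 40.5, 50.2 and 54.1 in NaiveCult WT and 25.4, 23.3 and 24.6 in PXGL WT. The 3 groups did not overlap. Its log2 fold change was -1.20 (SE 0.079, edgeR adjusted p = 1.74e-09) in NaiveCult WT and -2.13 (SE 0.082, edgeR adjusted p = 2.67e-12) in PXGL WT. COL4A2 was at 102 to 112 CPM in Primed WT, 34.2 to 44.6 in NaiveCult WT and 35 to 37.4 in PXGL WT, so that only its naive cultures overlapped. It fell by 1.30 (SE 0.076) and by 1.38 (SE 0.075) on the log2 scale, with edgeR adjusted p = 2.61e-10 and 1.04e-10.

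The X-linked pair fell further. COL4A5 was at 46.1, 44.5 and 48.9 CPM in Primed WT, 3.07, 2.42 and 2.57 in NaiveCult WT and 0.667, 0.759 and 0.764 in PXGL WT. COL4A6 was at 41.9, 46.9 and 44.9 CPM in Primed WT, 0.195, 0.163 and 0.225 in NaiveCult WT and 0.111, 0 and 0.0163 in PXGL WT. For both genes the primed libraries were highest, the NaiveCult libraries intermediate and the PXGL libraries lowest, without overlap. COL4A5 fell by 3.96 (SE 0.10, edgeR adjusted p = 1.34e-14) in NaiveCult WT and by 5.79 (SE 0.12, edgeR adjusted p = 8.05e-16) in PXGL WT on the log2 scale. COL4A6 fell by 7.67 (SE 0.21, edgeR adjusted p = 2.27e-14) and by 9.59 (SE 0.24, edgeR adjusted p = 7.87e-15). Of the third pair, COL4A4 fell from 4.51 ± 0.474 CPM to 0.169 ± 0.129 in NaiveCult WT and 0.250 ± 0.0302 in PXGL WT (log2 -4.55, SE 0.32, edgeR adjusted p = 1.89e-09, then -3.97, SE 0.29, edgeR adjusted p = 2.62e-09). COL4A3 had 61 counts in Primed WT against 0 in NaiveCult WT, at least 15.6-fold lower against a floor of 3 counts over the group, and 2 in PXGL WT, a primed-to-naive CPM ratio of 30.4 (95% counting interval 8.06 to 256). Intervals and floors cover counting error only.

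Within the pairs the balance of the chains differed between cultures. Per kb, COL4A1 stood at 1.52 times COL4A2 in Primed WT (1.43 to 1.62 over libraries), 1.61 times in NaiveCult WT (1.55 to 1.69) and 1.54 times in XACT KO (1.41 to 1.65). In the 7 PXGL groups the ratio was 0.755 to 0.936, and no PXGL library reached the lowest library of these 3 groups. COL4A5 and COL4A6 were near each other per kb in Primed WT (ratio 0.818, 0.742 to 0.859 over libraries), whereas COL4A5 was 7.19 to 30.5 times COL4A6 in the 9 naive groups. The latter ratios rest on few COL4A6 counts, and 1 library each of PXGL WT and siSPEN2 held none. COL4A3 stayed far below COL4A4 in every group, at 0.0769 times its level per kb in Primed WT. These ratios were not tested, and their absolute size depends on the exon lengths of the annotation.

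**Figure D2:**
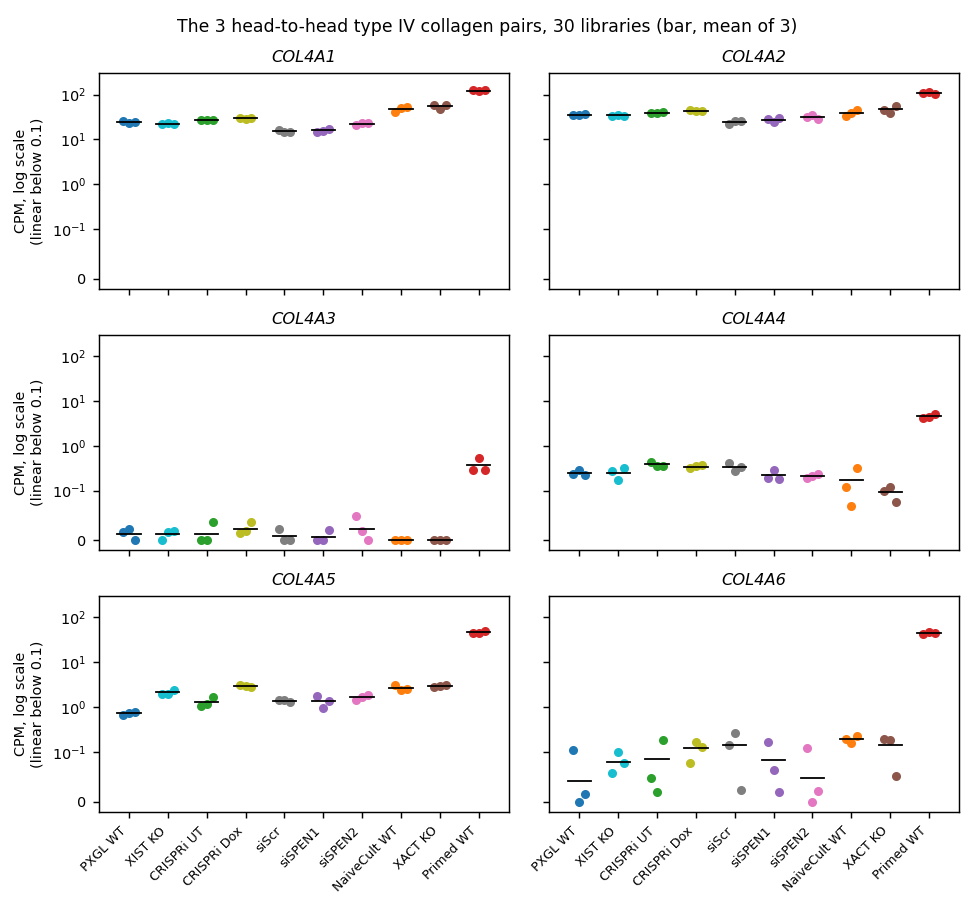
CPM (y axis, log scale, linear below 0.1) of the 6 type IV collagen genes, 1 panel each, in the 30 libraries of the 10 groups (x axis; points, libraries; black bars, mean of 3). COL4A5 and COL4A6 have means of 46.5 and 44.6 CPM in Primed WT, while in the naive groups COL4A5 lies between 0.730 and 2.98 CPM and COL4A6 at 0.194 CPM or below.

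Fibrillar genes spanned a wide range. COL11A1 (chromosome 1, 102876467 to 103108872, minus strand), a minor chain that seeds thin fibrils, was at 27.7, 26.6 and 23.2 CPM in the Primed WT libraries, 4280 counts in all. It had 2 counts in NaiveCult WT, a primed-to-naive CPM ratio of 1643 (95% counting interval 455 to 13572), and 1 in PXGL WT, a CPM ratio of 4262 (95% counting interval 765 to 168390). COL1A2 (chromosome 7, 94394895 to 94431227, plus strand), a chain of type I collagen, was at 53.4 ± 1.61 CPM in Primed WT, 2.14 ± 0.444 in NaiveCult WT and 0.543 ± 0.0653 in PXGL WT, and fell by 4.48 (SE 0.11) and 6.39 (SE 0.13) on the log2 scale, with edgeR adjusted p = 1.05e-14 and 9.60e-16. Its partner chain COL1A1 was at 6.63 ± 1.29, 1.57 ± 0.107 and 3.08 ± 0.250 CPM in the same order. It was called lower in NaiveCult WT (-1.92, SE 0.17, edgeR adjusted p = 3.88e-08) and passed the adjusted p alone in PXGL WT (-0.90, SE 0.16, edgeR adjusted p = 7.05e-05).

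The chains of type V collagen, which starts fibril assembly, parted in PXGL cells. COL5A2 was at 30.7 ± 1.99 CPM in Primed WT, 1.88 ± 0.633 in NaiveCult WT and 0.401 ± 0.175 in PXGL WT and was called lower in both (log2 -3.87, SE 0.21, edgeR adjusted p = 5.80e-10, then -5.99, SE 0.25, edgeR adjusted p = 2.96e-11). COL5A1 was higher in PXGL WT, at 18.5 ± 1.01 CPM against 8.04 ± 1.64 in Primed WT (1.41, SE 0.13, edgeR adjusted p = 6.77e-08), and at 5.30 ± 0.585 in NaiveCult WT, where it passed the adjusted p alone (-0.45, edgeR adjusted p = 0.00747). COL27A1, a fibrillar collagen of cartilage, was likewise higher in PXGL WT, 82.7 ± 0.568 against 23.3 ± 0.927 CPM (2.03, SE 0.064, edgeR adjusted p = 1.05e-13), and at 15.5 ± 1.45 CPM in NaiveCult WT (-0.44, edgeR adjusted p = 1.65e-05). COL2A1, the main fibril chain of cartilage, fell from 8.74 ± 0.744 CPM to 0.225 ± 0.0302 in NaiveCult WT and 0.0878 ± 0.0281 in PXGL WT, and COL24A1 from 3.04 ± 0.564 to 0.592 ± 0.0295 and 0.543 ± 0.120. COL5A3 was called lower in NaiveCult WT (-3.34, SE 0.31, edgeR adjusted p = 5.41e-08) and did not pass in PXGL WT (-0.35, SE 0.22, edgeR adjusted p = 0.156).

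COL3A1 (chromosome 2, 188974373 to 189012746, plus strand), a fibril chain typical of fibroblasts, had the largest rise of the members in NaiveCult WT. It was at 8.90, 10.2 and 16.3 CPM there, against 0.0392, 0 and 0.289 in Primed WT, and had 1 count in all of PXGL WT. Every NaiveCult library was above every other wild-type library. Its log2 fold change over Primed WT was 6.70 (SE 0.53, edgeR adjusted p = 3.87e-07). LUM, a fibroblast matrix proteoglycan on the list of 15 fibroblast markers, was at 2.97 to 6.35 CPM in NaiveCult WT, 0 in PXGL WT and at most 0.122 in Primed WT. Summed over the 15 markers, the libraries held 127 to 172 CPM in NaiveCult WT and 82.7 to 89.3 in PXGL WT. Primed WT held 883 to 1059 CPM, or 199 to 232 without THY1, which is also a primed marker. Of 13 fibroblast markers tested, 3 were called higher and 6 lower in NaiveCult WT than in Primed WT. Of markers of other types, 5 of 5 hypoblast and 6 of 6 trophectoderm markers tested were called higher in NaiveCult WT, and 4 of 5 and 5 of 6 in PXGL WT. The trophectoderm marker KRT7 was called lower in PXGL WT (-2.10). Of the mesoderm markers, TBXT, MIXL1 and EOMES were called higher and MESP1 lower in both naive cultures. Among defining fibroblast markers, LUM and FAP were at 0 in PXGL WT, PRRX1 in NaiveCult WT and FAP in Primed WT. Reads of the mouse feeders were removed by the authors with a species filter, and the part of any that passed in these values was not tested.

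Among FACIT genes the direction was mixed, also within the type IX trimer. COL9A1 was at 21.6, 22.1 and 23.8 CPM in Primed WT, 0 to 0.0732 in NaiveCult WT and 0 to 0.0813 in PXGL WT (log2 -8.94, SE 0.33, edgeR adjusted p = 9.43e-13, then -9.0, SE 0.32, edgeR adjusted p = 4.71e-13). COL9A3 (chromosome 20, 62816244 to 62841159, plus strand) was higher in naive cells, at 132 ± 2.63 CPM in PXGL WT and 83.5 ± 0.959 in NaiveCult WT against 39.8 ± 5.24 in Primed WT, without overlap between the states. Its log2 fold change was 1.94 (SE 0.076, edgeR adjusted p = 3.47e-12) in PXGL WT and 1.23 (SE 0.076, edgeR adjusted p = 8.26e-10) in NaiveCult WT. The third chain, COL9A2, was at 2.82 ± 0.374 CPM in Primed WT, 0.746 ± 0.0556 in NaiveCult WT (called lower, -1.76, SE 0.20, edgeR adjusted p = 5.00e-07) and 2.18 ± 0.168 in PXGL WT (-0.17, edgeR adjusted p = 0.345). Of the other FACIT genes, COL14A1 fell from 47.8 ± 3.10 CPM to 2.41 ± 0.0443 in NaiveCult WT and 2.20 ± 0.356 in PXGL WT (log2 -4.15, SE 0.11, then -4.22, SE 0.11). COL20A1 was at 0.180 ± 0.105 CPM in Primed WT, 0.412 ± 0.0994 in NaiveCult WT and 3.21 ± 0.651 in PXGL WT, and was called higher in both (1.31, SE 0.42, edgeR adjusted p = 0.00869, then 4.31, SE 0.33, edgeR adjusted p = 5.77e-09). COL12A1, COL16A1 and COL22A1 were called lower in both, at log2 -1.26, -5.28 and -6.03 in NaiveCult WT and -4.09, -6.67 and -5.94 in PXGL WT, and COL21A1 in PXGL WT (-1.85).

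COL18A1 (chromosome 21, 45405165 to 45513720, plus strand; SLC19A1 overlaps 18.5% of its exon length on the other strand, which the stranded counting separates), a basement membrane collagen that carries heparan sulfate and whose end fragment is endostatin, was at 208, 225 and 186 CPM in Primed WT, 66.6, 65.8 and 69.5 in PXGL WT and 15.5, 17.3 and 15.8 in NaiveCult WT. The states did not overlap. It fell by 3.51 (SE 0.072, edgeR adjusted p = 9.35e-16) in NaiveCult WT and by 1.41 (SE 0.064, edgeR adjusted p = 9.31e-12) in PXGL WT on the log2 scale. Of the transmembrane collagens, COL23A1 fell from 19.4 ± 0.315 CPM to 2.31 ± 0.125 in NaiveCult WT and 2.44 ± 0.425 in PXGL WT. COL25A1, known for binding amyloid and for motor neuron wiring, fell from 23.8 ± 1.41 to 3.64 ± 0.700 and 3.30 ± 0.213 CPM, and COL13A1, a collagen of the neuromuscular junction, from 4.42 ± 0.239 to 0.0386 ± 0.0124 and 0.0479 ± 0.0572. The fourth, COL17A1, the hemidesmosome collagen of epithelia, rose from 1.65 ± 0.182 to 12.2 ± 3.46 and 7.92 ± 0.506 CPM (log2 3.03, SE 0.19, edgeR adjusted p = 1.11e-09, then 2.46, SE 0.19, edgeR adjusted p = 1.12e-08). COL7A1, which anchors epithelial basement membranes to the fibrils beneath, rose too (log2 1.29, SE 0.11, edgeR adjusted p = 1.81e-08, then 2.31, SE 0.11, edgeR adjusted p = 1.03e-11). COL8A2, a network collagen of the cornea, fell from 19.2 ± 0.535 CPM to 0.249 ± 0.0881 and 0.238 ± 0.133.

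The chains of type VI collagen, which assemble into beaded filaments, did not move alike. COL6A1 was at 81.6 ± 3.32 CPM in Primed WT, 139 ± 1.43 in PXGL WT and 60.0 ± 4.36 in NaiveCult WT. Its log2 fold changes of 0.97 (SE 0.053) in PXGL WT and -0.29 (SE 0.054) in NaiveCult WT passed the adjusted p alone. COL6A2 was at 91.7 ± 7.22, 42.5 ± 2.58 and 25.1 ± 1.05 CPM in this order, called lower in NaiveCult WT (-1.72, SE 0.068) and past the adjusted p alone in PXGL WT (-0.90, SE 0.066). COL6A3 was at 10.3 ± 0.902 CPM in Primed WT, 3.07 ± 1.32 in NaiveCult WT (-1.59, SE 0.26, edgeR adjusted p = 7.58e-05) and 0.201 ± 0.126 in PXGL WT (-5.55, SE 0.37, edgeR adjusted p = 7.66e-09). COL6A6 was called higher in PXGL WT, 0.873 ± 0.120 against 0.340 ± 0.167 CPM (1.59, SE 0.35, edgeR adjusted p = 5.11e-04). COL26A1, at 74.4 ± 2.15 CPM in Primed WT, passed the adjusted p alone in NaiveCult WT (-0.67) and PXGL WT (-0.28).

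**Figure D3:**
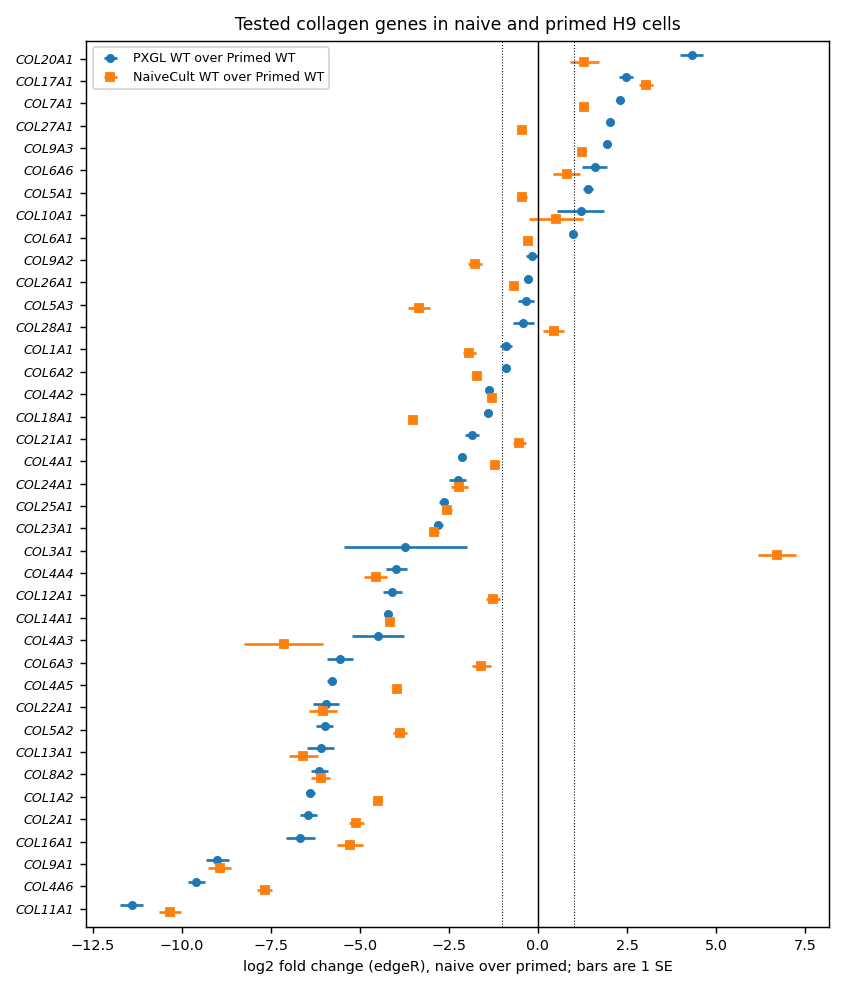
log2 fold change (x axis) of the 39 tested collagen genes (y axis) in PXGL WT (circles) and NaiveCult WT (squares) over Primed WT, with bars of 1 SE, ordered by PXGL WT. Dotted lines mark the fold threshold. COL11A1, COL4A6 and COL9A1 lie farthest to the left, COL7A1, COL9A3, COL17A1 and COL20A1 lie right of 1 in both, and COL3A1 is at 6.70 in NaiveCult WT. Points that rest on 3 or fewer naive counts (COL11A1 and COL4A3 in both, COL3A1 in PXGL WT) are no measure of the fold.

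The naive cultures were then set against each other. In PXGL WT 9 members were called higher and 9 lower than in NaiveCult WT, of 39 tested, against 16.3% higher and 11% lower over all genes. The median over the members was -0.035, against 0.0021 over all genes. Higher in PXGL WT were the FACIT genes COL20A1 (log2 3.01) and COL9A2 (1.59), the fibrillar genes COL5A3 (2.99), COL27A1 (2.47), COL5A1 (1.86) and COL1A1 (1.03), and COL18A1 (2.11), COL6A1 (1.26) and COL7A1 (1.02). Lower were COL6A3 (-3.96), the FACIT genes COL12A1 (-2.84) and COL21A1 (-1.33), the fibrillar genes COL5A2 (-2.12), COL1A2 (-1.90), COL2A1 (-1.34) and COL3A1, with 1 count against 1530, and the X-linked pair COL4A5 (-1.83, SE 0.14, edgeR adjusted p = 1.32e-08) and COL4A6 (-1.92, SE 0.57, edgeR adjusted p = 0.00690). COL4A1 passed the adjusted p alone (-0.93, SE 0.082, edgeR adjusted p = 1.11e-07), as did COL6A2 (0.82), COL9A3 (0.71) and COL26A1 (0.40), while COL4A2 (-0.081, edgeR adjusted p = 0.361) and COL4A4 (0.58, edgeR adjusted p = 0.247) did not pass.

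Other PXGL controls gave partly other values, in alternatives chosen after the values were seen. With siScr in place of PXGL WT, COL4A6 was at -0.26 (edgeR adjusted p = 0.642) and COL2A1 at -0.77 (edgeR adjusted p = 0.0962), so that both calls were lost. With CRISPRi UT, COL4A6 was at -1.11 (edgeR adjusted p = 0.0655) and COL1A2 at 0.23 (edgeR adjusted p = 0.403). COL4A5 passed the adjusted p alone with both, at -0.84 (edgeR adjusted p = 2.73e-05) and -0.93 (edgeR adjusted p = 9.11e-05), so that its call too rested on PXGL WT.

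The second comparison asked which collagen genes respond to the loss of XIST. No group received Dox without the guide to XIST, so with Dox the drug and the loss of XIST cannot be told apart. The paper held a Dox effect likely for its larger number of changed genes with Dox. In XIST KO 1 of 30 members tested was called higher and 0 lower, against 0.908% and 0.376% of all genes, and 7 members passed the adjusted p, 10 being at an unadjusted p under 0.05 by edgeR and 1 called by DESeq2. After Dox treatment 2 were called higher and 1 lower, against 2.25% and 1.56% of all genes, and 12 passed the adjusted p. The shares of all genes past the adjusted p are not given here. The median log2 fold change of the members was 0.11 in XIST KO and -0.15 with Dox, against -0.006 and -0.00097 over all genes. These systems share no control libraries.

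COL4A5, the X-linked basement membrane chain, was called higher in both. It was at 0.667, 0.759 and 0.764 CPM in PXGL WT and 2.0, 1.98 and 2.40 in XIST KO, and at 1.09, 1.21 and 1.69 in CRISPRi UT and 3.18, 3.0 and 2.76 in CRISPRi Dox. The groups did not overlap in either system. It rose by 1.54 (SE 0.20, edgeR adjusted p = 3.13e-06) in XIST KO, whose replicates were technical, and by 1.16 (SE 0.18, edgeR adjusted p = 1.06e-05) with Dox on the log2 scale. The difference between these changes did not pass (0.38, SE 0.27, edgeR adjusted p = 0.331). The untreated CRISPRi clones stood above PXGL WT before any depletion (0.86, SE 0.21, edgeR adjusted p = 0.00330). All 4 groups were far below the 46.5 ± 2.24 CPM of primed cells. Its head-to-head partner COL4A6 was not tested, with group means of 0.0425 to 0.124 CPM in these 4 groups. The paper reported that most genes changed by XIST loss were X-linked and higher. A rise of an X-linked gene is therefore not particular to collagens.

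COL5A2 (chromosome 2, 189031898 to 189225312, minus strand) was at 0.731, 1.04 and 0.974 CPM in CRISPRi UT and 11.2, 11 and 8.29 in CRISPRi Dox, without overlap. Its log2 fold change was 3.46 (SE 0.18, edgeR adjusted p = 3.44e-13), and lay between 3.32 and 3.59 with each compared library left out in turn. In XIST KO it was at 0.569, 0.814 and 0.799 CPM against 0.381, 0.237 and 0.585 in PXGL WT, ranges that overlapped, and it did not pass (0.81, SE 0.27, edgeR adjusted p = 0.0526). The difference between the changes was -2.66 (SE 0.35, edgeR adjusted p = 5.29e-06), the 1 difference called among the 30 members, against 2.88% of all genes called in either direction. Without PXGL WT replicate 1 that of COL6A6 was also called, and without CRISPRi UT replicate 3 or CRISPRi Dox replicate 2 that of COL7A1, which makes 2. COL3A1, the collagen gene next to COL5A2 on the chromosome, was not tested, its counts summing to 4 over the CRISPRi UT libraries and 23 with Dox.

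COL1A2 fell with Dox, from 1.51, 2.43 and 3.22 CPM to 0.234, 1.08 and 1.30 (log2 -1.49, SE 0.43, edgeR adjusted p = 0.0155), without overlap. The untreated clones stood above PXGL WT here too (2.12, SE 0.46, edgeR adjusted p = 0.00522), while XIST KO, at 0.549, 0.373 and 0.663 CPM, overlapped PXGL WT, at 0.604, 0.474 and 0.553. The call was lost without CRISPRi UT replicate 3 (edgeR adjusted p = 0.0549) and in a fit restricted to the 6 libraries compared (edgeR adjusted p = 0.0964). COL1A2 and COL5A2 (1.13, SE 0.26, edgeR adjusted p = 0.00277) were the 2 members of 30 called between CRISPRi UT and PXGL WT, against 2.0% of all genes in either direction. COL5A1 (0.56), COL6A2 (0.42), COL6A1 (0.17) and COL6A6 (0.91) were also higher in CRISPRi UT, past the adjusted p alone. COL5A2 was not called without PXGL WT replicate 2, and COL6A6 was called too without PXGL WT replicate 1, which gives 1 and 3 calls.

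Other members moved less. With Dox COL6A1 fell from 156 ± 6.64 to 112 ± 3.06 CPM (-0.50, SE 0.036, edgeR adjusted p = 7.56e-11) and COL7A1 from 12.4 ± 0.748 to 7.18 ± 1.61 (-0.81, SE 0.10, edgeR adjusted p = 1.05e-06), and COL9A3 from 122 ± 0.575 to 99.0 ± 7.99 (-0.32, edgeR adjusted p = 2.90e-06) and COL18A1 from 66.2 ± 6.08 to 52.9 ± 2.37 (-0.34, edgeR adjusted p = 2.46e-05), all past the adjusted p alone. COL5A3 passed the adjusted p alone as well (-0.63, edgeR adjusted p = 0.0177). In XIST KO COL6A1 went the other way, from 139 ± 1.43 to 157 ± 2.06 CPM (0.18, SE 0.035, edgeR adjusted p = 9.57e-04), and the difference between the systems was 0.68 (SE 0.05, edgeR adjusted p = 7.28e-10). COL7A1 did not pass in XIST KO (0.15, edgeR adjusted p = 0.357), and its difference was 0.95 (SE 0.14, edgeR adjusted p = 2.59e-05). COL14A1 passed the adjusted p alone in XIST KO, at 4.28 ± 0.615 against 2.20 ± 0.356 CPM (0.95, SE 0.19, edgeR adjusted p = 0.00125). It crossed the fold threshold without PXGL WT replicate 1 (1.05) or XIST KO replicate 1 (1.06), and COL5A2 was called without PXGL WT replicate 3, so that each of these gave 2 calls. COL26A1 (-0.24, edgeR adjusted p = 0.00152), COL9A3 (-0.20, edgeR adjusted p = 0.00214) and COL25A1 (-0.63, edgeR adjusted p = 0.0138) fell in XIST KO, past the adjusted p alone.

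The autosomal type IV genes moved little. COL4A1 was at -0.14 in XIST KO (edgeR adjusted p = 0.0696) and 0.13 with Dox (edgeR adjusted p = 0.0408), and COL4A2 at -0.061 (edgeR adjusted p = 0.489) and 0.14 (edgeR adjusted p = 0.0219). COL4A4 was at 0.012 and -0.18 and did not pass in either. Of markers of other cell types, 1 of 6 fibroblast markers tested (LOX, -1.98), 2 of 3 mesoderm markers (TBXT, -2.58, and MIXL1, -1.63) and 1 of 5 hypoblast markers (GATA6, -1.01) were called lower with Dox and 1 of 6 trophectoderm markers (HAND1, 1.76) higher. Other markers of these lists went the other way with Dox, past the adjusted p alone. The hypoblast markers GATA4 (0.97, edgeR adjusted p = 3.06e-09) and PDGFRA (0.96, edgeR adjusted p = 1.43e-05) rose. The mesoderm marker EOMES rose (0.52, edgeR adjusted p = 0.0404), and the trophectoderm marker GATA3 fell (-0.44, edgeR adjusted p = 0.00257). In XIST KO 1 trophectoderm marker was called lower (CGA, -3.38). Of pluripotency markers, 1 of 8 naive markers (KLF17, -1.24) and 1 of 4 primed markers tested (VRTN, -1.06) were called lower with Dox. The summed fibroblast markers were at 80.1 to 85.3 CPM in CRISPRi UT and 67.3 to 70.9 in CRISPRi Dox, 82.7 to 89.3 in PXGL WT and 71.0 to 73.2 in XIST KO, with FAP at 0 in all 4 groups. Their part in the collagen values was not tested.

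**Figure D4:**
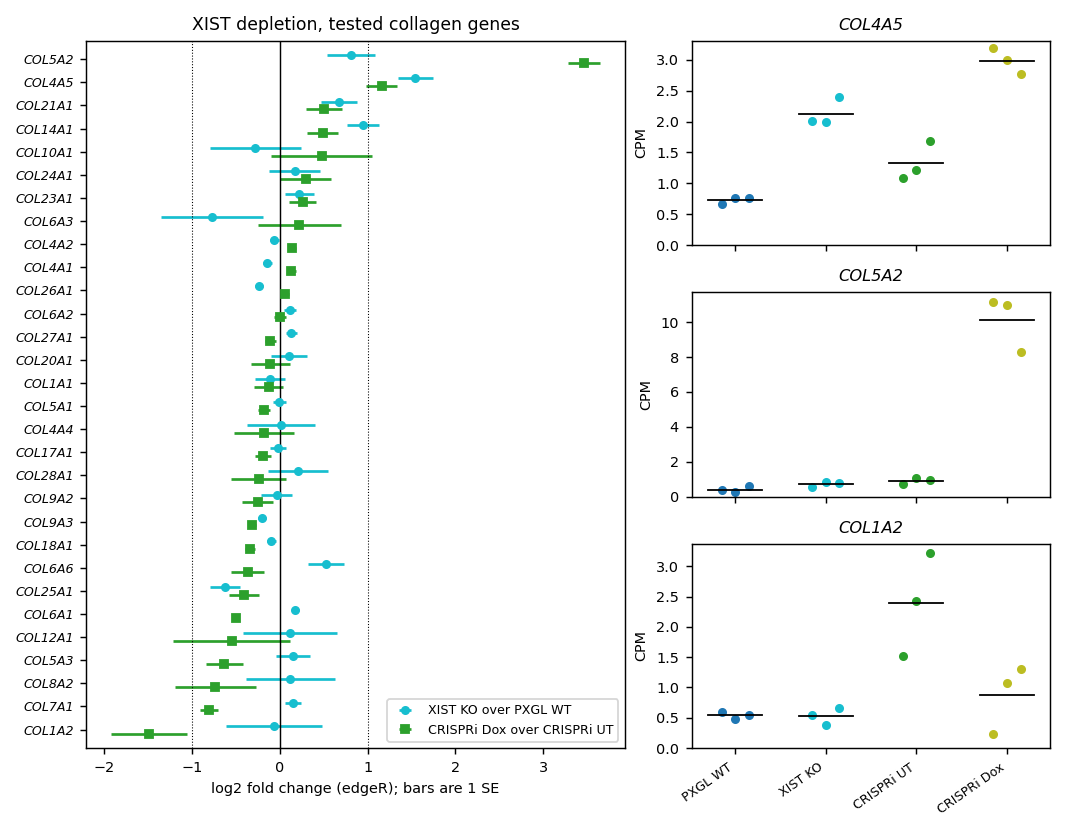
Left, log2 fold change (x axis) of the 30 tested collagen genes (y axis) after XIST deletion (circles, XIST KO over PXGL WT) and after Dox (squares, CRISPRi Dox over CRISPRi UT), with bars of 1 SE and dotted lines at the fold threshold. Right, CPM (y axis) of COL4A5, COL5A2 and COL1A2 in the 12 libraries (points; black bars, mean of 3). COL4A5 is right of 1 in both systems, and COL5A2 reaches 8.29 to 11.2 CPM in CRISPRi Dox and at most 1.04 CPM in the other groups shown.

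The third comparison was the knockdown of SPEN. Both mixes share the siScr control. With siSPEN1 0 of 28 members tested were called higher and 2 lower, against 2.23% and 2.84% of all genes, and with siSPEN2 0 were called higher and 1 lower, against 2.52% and 1.68%. By edgeR 14 and 12 members were at an unadjusted p under 0.05, and DESeq2 called 2 and 1 in all. The median log2 fold change of the members was -0.13 with siSPEN1 and 0.02 with siSPEN2, against -0.00049 and -0.0048 over all genes. COL4A5, the member called in both XIST systems, was at 1.43, 1.44 and 1.31 CPM in siScr, 1.76, 0.962 and 1.36 in siSPEN1 and 1.44, 1.69 and 1.85 in siSPEN2. The 3 groups overlapped, and it did not pass with either mix (-0.018, SE 0.23, edgeR adjusted p = 0.961, then 0.24, SE 0.22, edgeR adjusted p = 0.411).

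The calls with siSPEN1 were a FACIT and a network gene. COL14A1 was at 2.76, 3.27 and 2.77 CPM in siScr and 1.09, 1.22 and 1.77 in siSPEN1 (-1.07, SE 0.20, edgeR adjusted p = 7.89e-05). COL8A2 was at 0.262, 0.226 and 0.509 CPM in siScr and 0.0557, 0.160 and 0.124 in siSPEN1 (-1.52, SE 0.55, edgeR adjusted p = 0.0290). Neither gene's groups overlapped. COL8A2 lost its call without siScr replicate 3 (edgeR adjusted p = 0.180), siSPEN1 replicate 1 (edgeR adjusted p = 0.118) or siSPEN1 replicate 3 (edgeR adjusted p = 0.0644). COL14A1 was under the fold threshold without siScr replicate 2 (-0.98) or siSPEN1 replicate 1 (-0.92), and without the latter the 1 member called was COL20A1 (-1.06). COL6A2 rose from 29.2 ± 2.34 to 41.7 ± 2.99 CPM (0.53, SE 0.069, edgeR adjusted p = 7.41e-07) and COL20A1 fell from 3.03 ± 0.252 to 1.55 ± 0.190 (-0.97, SE 0.18, edgeR adjusted p = 8.16e-05), both past the adjusted p alone. COL9A2 (-0.87, edgeR adjusted p = 6.40e-04), COL17A1 (-0.38, edgeR adjusted p = 0.00137) and COL27A1 (-0.24, edgeR adjusted p = 0.00418) fell likewise.

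The call with siSPEN2 was COL21A1, another FACIT gene, at 1.28, 1.5 and 1.04 CPM in siScr and 0.391, 0.581 and 0.630 in siSPEN2, without overlap (-1.26, SE 0.30, edgeR adjusted p = 0.00154). With siSPEN1 it was at 0.474, 0.930 and 0.846 CPM (-0.76, SE 0.30, edgeR adjusted p = 0.0413). Without siScr replicate 1 or 3, or siSPEN2 replicate 1 or 2, COL6A3 was called lower too, which makes 2. The changes with the smallest p were rises past the adjusted p alone. COL5A1 rose from 17.4 ± 1.5 to 29.1 ± 1.49 CPM (0.73, SE 0.074, edgeR adjusted p = 1.49e-08), COL6A2 from 29.2 ± 2.34 to 46.4 ± 2.62 (0.66, SE 0.068, edgeR adjusted p = 2.05e-08) and COL18A1 from 31.5 ± 0.871 to 46.1 ± 3.38 (0.54, SE 0.065, edgeR adjusted p = 2.51e-07). COL4A1 rose from 15.4 ± 0.779 to 22.6 ± 1.53 CPM (0.54, SE 0.075, edgeR adjusted p = 1.97e-06) and COL27A1 from 49.8 ± 4.45 to 65.9 ± 3.44 (0.39, SE 0.063, edgeR adjusted p = 1.62e-05). COL4A2 rose by 0.36 (edgeR adjusted p = 6.87e-04). With siSPEN1 neither COL4A1 (0.068, edgeR adjusted p = 0.514) nor COL4A2 (0.18, edgeR adjusted p = 0.0708) passed, and COL4A4 did not pass with either mix (-0.60 and -0.65). COL4A3 and COL4A6 were not tested.

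The mixes were also compared with each other. COL8A2, at 0.561, 0.329 and 0.357 CPM in siSPEN2, was called higher there than in siSPEN1 (1.82, SE 0.53, edgeR adjusted p = 0.00936), 1 of 28 members against 2.49% of all genes called in either direction. Of 13 members that passed the adjusted p, 11 were higher in siSPEN2. Those with the smallest p were COL27A1 (0.63, SE 0.064, edgeR adjusted p = 2.08e-08), COL5A1 (0.59, SE 0.074, edgeR adjusted p = 6.09e-07), COL17A1 (0.58, SE 0.089, edgeR adjusted p = 1.07e-05), COL6A6 (-0.91, SE 0.14, edgeR adjusted p = 1.21e-05) and COL4A1 (0.48, SE 0.076, edgeR adjusted p = 1.85e-05). The call of COL8A2 was lost without siSPEN1 replicate 1 (edgeR adjusted p = 0.0509), and COL14A1 was called as well without siSPEN1 replicate 3, which gives 0 and 2 calls. Among fibroblast markers TAGLN was at 10 CPM in siScr, 2.81 in siSPEN1 and 6.80 in siSPEN2, and PRRX1 was called lower with siSPEN2 (-2.85), 1 of 7 markers tested with each mix. With siSPEN1 2 of 6 trophectoderm markers and 1 of 3 mesoderm markers were called lower. With siSPEN2 2 of 5 hypoblast markers were called lower and 2 of 6 trophectoderm markers higher. Other markers of these lists went the other way, past the adjusted p alone. The trophectoderm marker KRT7 (0.98) and the mesoderm marker MIXL1 (0.74) rose with siSPEN1. The trophectoderm markers GATA3 (-0.88), HAND1 (-0.50) and CDX2 (-0.43) fell with siSPEN2. Of 4 primed markers tested, 1 (CD24, -1.35 with siSPEN1 and -1.17 with siSPEN2) was called lower with each mix. The summed fibroblast markers were at 74.1 to 81.3 CPM in siScr, 68.6 to 75.0 in siSPEN1 and 78.5 to 80.0 in siSPEN2, with FAP at 0 in all 3 groups. Their part in the collagen values was not tested.

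The fourth comparison was the deletion of XACT. In XACT KO 0 of 29 members tested were called higher and 1 lower than in NaiveCult WT, against 0.0607% and 0.0668% of all genes, and by edgeR 8 were at an unadjusted p under 0.05. DESeq2 called 2. COL6A3, a type VI chain, was at 2.10, 2.53 and 4.57 CPM in NaiveCult WT and 0.571, 1.44 and 0.817 in XACT KO, without overlap (-1.68, SE 0.34, edgeR adjusted p = 0.0485). COL3A1 was at 8.90, 10.2 and 16.3 CPM in NaiveCult WT and 2.36, 8.07 and 2.86 in XACT KO (-1.40, edgeR adjusted p = 0.238), and COL1A2 at 1.73, 2.07 and 2.61 and 0.447, 1.39 and 0.664 CPM (-1.34, edgeR adjusted p = 0.0558). Their groups did not overlap either, and neither gene passed. The call of COL6A3 was lost, leaving 0, with library totals in place of TMM (edgeR adjusted p = 0.0534) and without replicate 2 (edgeR adjusted p = 0.0809) or 3 (0.0697) of NaiveCult WT or replicate 1 (0.164) or 3 (0.180) of XACT KO. Without XACT KO replicate 2 COL1A2 and COL3A1 were called too, and without NaiveCult WT replicate 1 COL1A2 and COL5A2, which makes 3.

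XACT KO replicate 2 held the highest value of its group for COL6A3, COL3A1, COL1A2 and COL5A2, and also for LUM, which was at 2.97, 3.79 and 6.35 CPM in NaiveCult WT and 0.795, 3.47 and 1.38 in XACT KO. COL3A1 was 2.07 to 2.99 times LUM in CPM over these 6 libraries. In XACT KO COL1A1 was at 1.07, 1.01 and 0.919 CPM and COL12A1 at 1.34, 0.944 and 1.68. Replicate 2 was thus not the highest for either. DCN, another fibroblast proteoglycan, was at 0.268, 0.209 and 0.248 CPM in NaiveCult WT and 0.0248, 0.660 and 0.102 in XACT KO, again highest in XACT KO replicate 2, and POSTN at 0.683, 0.256 and 1.19 and 0.273, 0.0944 and 0.0766. The summed fibroblast markers were at 127 to 172 CPM in NaiveCult WT and 147 to 188 in XACT KO, most of it TAGLN and FN1, which were above 1 CPM in every naive group. Of 9 fibroblast markers tested 0 were called by edgeR, with 4 at an unadjusted p under 0.05. The part of these markers in the collagen values was not tested. COL4A5 (0.16, edgeR adjusted p = 0.689), COL4A1 (0.20, edgeR adjusted p = 0.327) and COL4A2 (0.26, edgeR adjusted p = 0.226) did not pass, and COL4A3, COL4A4 and COL4A6 were not tested.

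**Figure D5:**
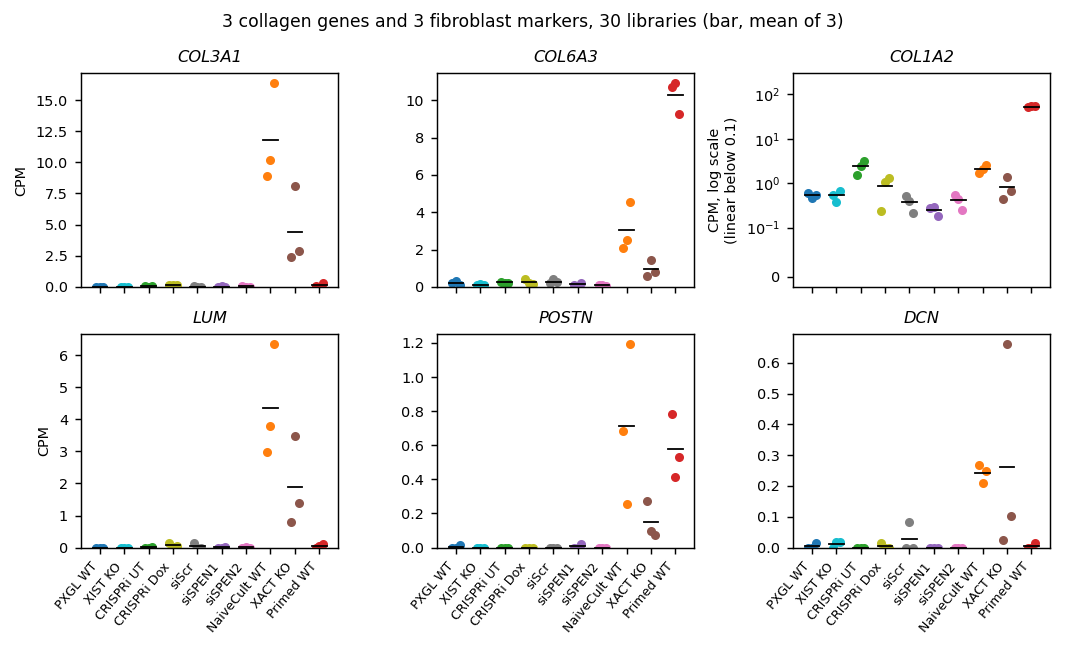
CPM (y axis, log scale with a linear part below 0.1 for COL1A2 and linear elsewhere) of COL3A1, COL6A3 and COL1A2 (top) and of the fibroblast markers LUM, POSTN and DCN (bottom) in the 30 libraries of the 10 groups (x axis; points, libraries; black bars, mean of 3). COL3A1 and LUM reach 16.3 and 6.35 CPM in NaiveCult WT and stay below 1 CPM in the PXGL groups and Primed WT, while COL6A3 and COL1A2 are highest in Primed WT.

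The genes that process, bind and degrade collagen were described from lists of known genes. Of 31 genes for folding, modification, trimming and cross-linking, 30 were tested between states, and 2 were called higher and 15 lower in NaiveCult WT, and 4 higher and 14 lower in PXGL WT. Over all genes 21.1% were called higher and 28.4% lower in NaiveCult WT, and 25.7% and 29% in PXGL WT, shares that stand beside all 4 lists described here. The median log2 fold change of the processing genes tested was -0.86 in NaiveCult WT and -0.91 in PXGL WT, against -0.013 and -0.028 over all genes. P3H2, a prolyl 3-hydroxylase that acts on type IV collagen, was at 78.2 ± 6.12 CPM in Primed WT, 0.755 ± 0.152 in NaiveCult WT and 0.0187 ± 0.0168 in PXGL WT (log2 -6.54, SE 0.13, then -11.71, SE 0.21). COLGALT2, which glycosylates hydroxylysine, went from 7.11 ± 1.17 to 0.0463 ± 0.0451 and 0.171 ± 0.0360 CPM, and LOXL3, a cross-linking enzyme, from 33.8 ± 1.43 to 0.710 ± 0.353 and 1.82 ± 0.224. TLL1, which trims procollagen, was called lower as well (-5.50 and -6.68).

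Of 17 laminins, nidogens and other basement membrane partners, all tested, 3 were called higher and 7 lower in NaiveCult WT and 4 higher and 4 lower in PXGL WT, with a median log2 fold change of -0.36 and -0.091. LAMB3, a laminin chain of epithelial membranes, was at 0.764 ± 0.119 CPM in Primed WT, 10.2 ± 1.05 in NaiveCult WT and 18.7 ± 0.401 in PXGL WT. LAMA5 was at 37.9 ± 4.54, 83.0 ± 4.55 and 372 ± 0.273 CPM in the same order (log2 1.28 and 3.50), and HSPG2, which encodes perlecan, was called lower in both, at 58.2 ± 15.6, 7.77 ± 1.22 and 6.84 ± 0.459 CPM. LAMB3 and LAMA5 were thus high in the cultures where the type IV collagen genes were low, while HSPG2 was low there too. Of the partners called in NaiveCult WT, most were lower. Of 10 collagen receptors 6 were tested, with 0 called higher and 2 lower in NaiveCult WT (ITGA1, -2.55, and DDR1, -1.92), and 1 higher (ITGA10, 2.75) and 3 lower in PXGL WT. ITGA2, an integrin chain for collagen, was at 22.9 ± 1.0 CPM in Primed WT, 16.0 ± 3.45 in NaiveCult WT and 0.211 ± 0.0391 in PXGL WT (-6.51, SE 0.21). Of 7 collagen-degrading enzymes 4 were tested. MMP14 (2.44 and 2.47) and MMP9 (1.99 and 2.80) were called higher and the cathepsin CTSK (-3.43 and -3.02) lower in both, and MMP2 lower in PXGL WT (-1.52).

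Genes of these lists were also called in the perturbations. Over all genes 0.908% were called higher and 0.376% lower in XIST KO, and 2.25% and 1.56% with Dox. The shares were 2.23% and 2.84% with siSPEN1, 2.52% and 1.68% with siSPEN2, and 0.0607% and 0.0668% in XACT KO. In XIST KO LAMA3 was called, 1 of 16 basement membrane partners tested (1.56, SE 0.23, edgeR adjusted p = 2.87e-05). With Dox LOX was called, 1 of 27 processing genes (-1.98, SE 0.38, edgeR adjusted p = 1.66e-04). So was HSPG2, 1 of 16 partners, at 11.2 ± 1.34 CPM in CRISPRi UT and 35.1 ± 10.5 in CRISPRi Dox (1.63, SE 0.21, edgeR adjusted p = 2.47e-04). Among those called with siSPEN1, LAMA3 (-1.25) was lower and NID1 (1.08) and LOXL3 (1.14) were higher. With siSPEN2 NID1, which links laminin to type IV collagen, was called higher, at 37.2 ± 2.78 against 11.1 ± 0.193 CPM (1.73, SE 0.07, edgeR adjusted p = 8.77e-16), as was MMP2, which degrades type IV collagen, at 22.9 ± 0.527 against 8.66 ± 0.364 (1.39, SE 0.076, edgeR adjusted p = 2.66e-13). In XACT KO edgeR called 0 of 27 processing genes, 0 of 6 receptors, 0 of 16 partners and 0 of 4 degrading enzymes, with 14, 1, 7 and 2 at an unadjusted p under 0.05. None of these counts is set against the share of all genes under that p.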

How the data were processed

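Libraries were made with the Illumina Stranded Total RNA kit. The authors trimmed the reads with Trim Galore 0.6.5, used Bowtie 2 for local alignment against hg38 (human) and mm10 (mouse), dropped duplicates with Picard 2.23.5, kept reads with a mapping quality of at least 10, removed mouse reads with XenofilteR and counted exonic reads per gene, reverse-stranded, with HTSeq 0.13.5. The deposited values are raw read counts for 28307 genes in each of 30 libraries, with totals of 31190052 to 65637976. CPM values are counts per 1000000 counts of the library. Positions and exon lengths were matched by symbol to GENCODE 44, and promoter windows came from RefSeq.

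Differences were fitted with edgeR 4.0.16 (R 4.3.3), with TMM scaling, genes kept by filterByExpr (minimum count 10, minimum total 15) and a robust quasi-likelihood F-test, two-sided, with Benjamini-Hochberg adjustment over all genes tested. The fits held 12 libraries for XIST (17286 genes), 9 for SPEN (16448), 6 for XACT (16472) and 9 for the cultures (18663). The fits were tested on simulated counts. DESeq2 1.42.0, other scalings and filters, a replicate block and leaving out each library were alternatives. Groups came from the labels. Libraries of a group differed from each other by more than sampling noise, with a chi-square per degree of freedom of 2.11 to 20.9 over 30 pairs. The members and lists were chosen with earlier results of these data known. Genes named were members of at least 10 CPM in any group, members called, at most 5 per comparison that passed the adjusted p alone, the 3 type IV pairs and at most 4 called genes per list. One gene of these lists is not reported here.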

Additional observations from a re-analysis of the deposited data

Results flagged for a closer look

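The effects of XIST deletion and of Dox treatment differed for 8 collagen genes, by the edgeR test of the difference of the 2 effects (XIST KO effect minus Dox effect, log2, all with an adjusted p below 0.05). COL5A2 was at -2.66, the 1 difference of these past the fold threshold. COL7A1 was at 0.95, COL6A6 at 0.89, COL6A1 at 0.68 and COL18A1 at 0.24. The differences of COL26A1 (-0.29), COL4A1 (-0.28) and COL4A2 (-0.20) had the other sign. The deletion was made in 1 clone with technical replicates, so that these p-values hold no spread between XIST KO cultures. The CRISPRi lines were other clones, so the means of depletion, Dox itself and the clones cannot be told apart. No share over all genes stands beside the count of 8.

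The siRNA mixes against SPEN differed for 13 collagen genes, by the edgeR test of siSPEN2 against siSPEN1 (log2, all with an adjusted p below 0.05). Higher with siSPEN2 were COL8A2 (1.82), COL14A1 (0.86), COL9A2 (0.77), COL27A1 (0.63), COL5A1 (0.59), COL17A1 (0.58), COL20A1 (0.52), COL1A1 (0.49), COL4A1 (0.48), COL18A1 (0.35) and COL26A1 (0.30). Lower were COL6A6 (-0.91) and COL25A1 (-0.60). SPEN itself was at 152 to 177 CPM with siSPEN1 and 152 to 167 CPM with siSPEN2. The cause of the difference between the mixes was not tested, and the count of 13 has no share over all genes beside it.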

How the results depend on the processing

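Of 2203 values of the members' log2 changes under the alternatives, 2147 kept their direction and their side of the adjusted p, 36 lost the threshold, 9 gained it and 11 changed sign. The signs that changed were those of COL4A4 in XIST KO (-0.020, -0.051, -0.059 and -0.17 without PXGL WT replicate 1 or 3 or XIST KO replicate 1 or 3, over a range of -0.17 to 0.25), COL4A5 with siSPEN1 (0.016, 0.16 and 0.0030 without siScr replicate 2, siSPEN1 replicate 2 or siSPEN1 replicate 3, over a range of -0.22 to 0.16) and, for PXGL WT against NaiveCult WT, COL4A2 (0.011 without NaiveCult WT replicate 3, and 0.085 with CRISPRi UT as the PXGL control), COL1A2 (0.23 with CRISPRi UT) and COL17A1 (0.10 with siScr).

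The count of members called went from 3 to 5 with Dox and from 1 to 2 with siSPEN2 without a filter on low counts. It went from 2 to 1 with siSPEN1, and from 1 to 0 between the mixes, when a CPM of at least 1 in 3 libraries was required, and from 2 to 1 with siSPEN1 when only the 6 libraries compared were fitted. In XACT KO it went from 1 to 2 with DESeq2, without a filter, with the replicate block and with Primed WT in the fit, and to 0 with library totals. Fewer genes or libraries enter some of these fits by construction; otherwise the cause was not tested. Leaving out 1 library gave 1 to 2 calls in XIST KO, 2 to 3 with Dox, 1 to 2 for the difference of these effects, 1 to 3 for CRISPRi UT against PXGL WT, 1 to 2 with each of siSPEN1 and siSPEN2, 0 to 2 between the mixes, 0 to 3 in XACT KO, 31 to 32 for NaiveCult WT and 30 to 33 for PXGL WT against Primed WT, and 18 to 20 between the naive cultures.

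Replicate numbers did not pair the libraries, with correlations of same-numbered deviations from -0.18 to 0.081 and 0 or 1 of 3 libraries closest to their own number. In the other comparisons the replicate block left the count of members called within 1.5 times, for example at 3 with Dox and 31 for NaiveCult WT against Primed WT. Over all genes, the calls in XACT KO went from 21 to 56 with the block, to 63 without a filter and to 34 with Primed WT in the fit, and lay between 0 and 75 with 1 library left out. Under the stricter filter the calls over all genes were 132 in XIST KO (222 otherwise), 361 with Dox (659), 169 for CRISPRi UT against PXGL WT (346), 513 with siSPEN1 (833), 397 with siSPEN2 (691) and 249 between the mixes (409).

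Without TMM scaling, and without COL1A1, COL1A2 and COL3A1, the collagen genes summed to 1096 CPM in Primed WT. With all 44 genes and TMM scaling over all libraries, the summed collagen level was 537 CPM in siScr, 546 in siSPEN1, 629 in siSPEN2 and 1024 in Primed WT. Per kb of exon it was 102 CPM in PXGL WT, 101 in XIST KO, 108 in CRISPRi UT, 94.9 in CRISPRi Dox, 86.0 in siScr, 86.0 in siSPEN1, 96.6 in siSPEN2, 62.7 in NaiveCult WT, 60.9 in XACT KO and 151 in Primed WT. With library totals, the share of calls over all genes that were higher went from 42.6% to 38% for NaiveCult WT and from 47.0% to 41.1% for PXGL WT against Primed WT. With siScr as the PXGL control, COL26A1 against Primed WT was at -0.029 (edgeR adjusted p = 0.612), and COL4A4 against NaiveCult WT at 1.06 (edgeR adjusted p = 0.0376). Members under 1 CPM rest on few counts, and 3 or fewer counts in a group give no measure of a fold.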
